A study of Mus musculus with 6 samples.

Results

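The genes described here are the globins and red cell genes of newborn mouse cortex: the adult globins Hbb-bs, Hbb-bt, Hba-a1 and Hba-a2, the embryonic globin Hbb-y, and the red cell genes Alas2, Slc4a1, Ahsp and Hemgn. They were chosen by symbol from a table of 23621 genes, and 8 of the 9 had a row under that symbol. Ahsp was not analysed here. The study compared 3 cortex libraries labelled as wild-type littermates with 3 labelled as Tle4-/- null littermates, all at postnatal day 0. Both genotypes shared a mixed background of the strains C57BL/6J, 129S6 and CD1, and the cortex was dissected in ice-cold HBSS and flash frozen. Libraries held 18617408 to 21632607 counts.

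Red cells carry oxygen on hemoglobin, a tetramer of alpha-type and beta-type globin chains, each holding a heme group. Mammals switch globin genes during development: primitive red cells of the early embryo use embryonic chains, and definitive red cells from the fetal liver and marrow use adult chains. Young red cells that have left the marrow still hold globin RNA, so brain tissue with blood in its vessels carries these transcripts. Mouse strains differ in their adult beta genes: C57BL/6 carries Hbb-bs and Hbb-bt, and other strains can carry a different pair at the same locus. Which pair each library carried was not analysed here.

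Tle4 itself stood at 198, 142 and 166 CPM (TMM-normalized CPM, a count scaled to library size) in wild-type cortex and at 69.3, 86.8 and 86.8 CPM in mutant cortex, so the genotypes did not overlap. All 8 fixed markers of cortical neurons were present in every library. Xist had 11 to 37 counts in wild-type cortex and 66194 to 79080 in mutant cortex. Ddx3y had 1463, 1891 and 2 counts in wild-type cortex and 0 to 2 in mutant cortex. Wild-type replicate 3 was low in both genes (37 counts of Xist and 2 of Ddx3y), so they leave its sex unclear. High Xist was found in every mutant and in no wild type, so effects of sex and genotype cannot be told apart. Meningeal markers were low in wild-type replicate 1, where Col1a1 had 28 counts against 618 to 2092 elsewhere. Mutant replicate 3 held 1789 counts of Ttr, which choroid plexus makes in bulk, where the others held 1 to 5. No label says which litter a library came from or that each is a separate animal, and p-values here measure only the spread between these samples.

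The promoters of the globin genes and of Alas2 are shown as sequence background. Across libraries Hba-a1, Hbb-bs and Hbb-bt varied together, while Hbb-y, from the same cluster as the adult beta genes, was nearly silent. The part of promoter sequence in these levels was not tested. Each sequence is the RefSeq reference (GRCm38.p6) for the 200 bases before the start of the transcript, 5′ to 3′ on the gene's strand, and capitals mark the motifs searched. The start is RefSeq's, while gene positions elsewhere are those of the deposited table, whose wider spans overlap part of each window.
Hba-a1: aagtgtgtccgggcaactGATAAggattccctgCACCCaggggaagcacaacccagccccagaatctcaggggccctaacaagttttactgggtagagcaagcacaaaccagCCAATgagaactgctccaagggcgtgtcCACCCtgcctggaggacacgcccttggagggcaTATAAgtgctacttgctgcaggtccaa
Hba-a2: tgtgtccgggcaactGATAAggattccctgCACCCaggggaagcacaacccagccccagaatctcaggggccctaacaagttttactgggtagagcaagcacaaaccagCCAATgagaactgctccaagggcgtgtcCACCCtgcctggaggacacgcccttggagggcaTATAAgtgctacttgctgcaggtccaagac
Hbb-bs: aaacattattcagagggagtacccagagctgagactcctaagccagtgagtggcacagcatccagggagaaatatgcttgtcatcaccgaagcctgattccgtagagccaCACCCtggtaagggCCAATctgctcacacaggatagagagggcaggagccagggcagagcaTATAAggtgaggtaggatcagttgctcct
Hbb-bt: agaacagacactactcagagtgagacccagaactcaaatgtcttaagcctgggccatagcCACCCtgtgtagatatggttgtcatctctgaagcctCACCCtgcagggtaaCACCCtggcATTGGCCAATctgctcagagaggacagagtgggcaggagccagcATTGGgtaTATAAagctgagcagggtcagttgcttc
Hbb-y: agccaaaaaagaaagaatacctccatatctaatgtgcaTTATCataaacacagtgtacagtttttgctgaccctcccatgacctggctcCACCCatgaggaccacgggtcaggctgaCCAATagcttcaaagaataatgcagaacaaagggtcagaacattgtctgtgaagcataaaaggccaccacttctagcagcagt
Alas2: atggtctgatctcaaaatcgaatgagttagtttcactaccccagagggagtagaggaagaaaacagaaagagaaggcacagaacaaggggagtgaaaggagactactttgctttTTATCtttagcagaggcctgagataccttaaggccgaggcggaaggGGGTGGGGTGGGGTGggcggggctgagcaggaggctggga

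These windows lie at chr11:32283472-32283671 and chr11:32296292-32296491 (plus strand), chr7:103827929-103828128, chr7:103813924-103814123 and chr7:103853208-103853407 (minus strand), and chrX:150547217-150547416 (plus strand). RefSeq promoters matched 7 of the member symbols, Hemgn being the one not printed. The motifs, searched on both strands, were CCAAT for the box of that name, then CACCC for the element bound by Klf factors, TATAA for the TATA box, and GATAA for a GATA-type site. No base belonged to more than 1 match, and a capital run longer than 5 bases holds matches that abut, as in Hbb-bt and Alas2. Among 32851 promoter windows of the same length, 29.3% held CCAAT, 45.5% CACCC, 18.5% TATAA and 18.1% GATAA. Hba-a1 and Hba-a2 held all 4, Hbb-bs and Hbb-bt held all but GATAA, and Hbb-y held all but TATAA. In Hba-a1 the TATAA began 27 bases before the start, in Hbb-bs 29 bases and in Hbb-bt 28 bases. Alas2 held 3 copies of CACCC, on the opposite strand, and 1 of GATAA. The windows of Hba-a1 and Hba-a2 shared an unbroken run of 197 bases, while the longest run shared by Hbb-bs and Hbb-bt was 14 bases. A match describes letters in the window and shows no binding.

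Hba-a1, an adult alpha globin gene (ENSMUSG00000069919, chromosome 11 from 32283511 to 32284465, 3 exons), was the most abundant of these transcripts. It stood at 83.5, 159 and 107 CPM in wild-type replicates 1, 2 and 3 and at 87.5, 128 and 166 CPM in mutant replicates 1, 2 and 3. Wild-type replicate 2 and mutant replicate 3 were high, replicate 1 of each genotype was low, and the genotypes overlapped. The means were 117 ± 38.9 CPM in wild-type cortex and 127 ± 39.3 CPM in mutant cortex (SD, n = 3 each). The log2 fold change of the mutant over the wild type was 0.13 (SE 0.31, 95% interval -0.62 to 0.88, edgeR adjusted p = 1.0). The interval allows anything from 0.650 to 1.84 of the wild-type level. The direction depended on single libraries: omitting wild-type replicate 1 gave -0.06, and omitting mutant replicate 3 gave -0.11. Omitting wild-type replicate 2 gave 0.42, wild-type replicate 3 gave 0.065 and mutant replicate 1 gave 0.34.

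Hba-a2, the other adult alpha gene (ENSMUSG00000069917, chromosome 11 from 32296489 to 32297298), had 1, 2 and 0 counts in wild-type cortex and 1, 0 and 0 in mutant cortex. It therefore stood at or near 0 in the same libraries in which Hba-a1 had 1640 to 3551 counts. The coding sequences of the main GENCODE transcripts of the pair are 429 bases long and differ at 1 base (99.8% identity). Of all 100-base windows, 56.5% of those in Hba-a1 occur unchanged in Hba-a2, and 74.5% of those in Hba-a2 occur in Hba-a1. How the counting treated reads that match both genes is not given in the sources used here, so the split between them is uncertain and Hba-a1 is read here as the alpha pair.

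Hbb-bs, the major adult beta globin of the C57BL/6 haplotype (ENSMUSG00000052305, chromosome 7 from 103826534 to 103828096, 3 exons), stood at 34.7, 54.0 and 37.2 CPM in wild-type cortex. In the mutants it stood at 31.6, 46.5 and 56.6 CPM. The highest library of each genotype was the same as for Hba-a1, and the genotypes overlapped. The means were 42.0 ± 10.5 and 44.9 ± 12.6 CPM (SD, n = 3 each), with a log2 fold change of 0.10 (SE 0.24, 95% interval -0.47 to 0.66, edgeR adjusted p = 1.0). Omitting single libraries turned its direction too, with -0.02 when wild-type replicate 1 was omitted and -0.11 when mutant replicate 3 was. Omitting wild-type replicate 2 gave 0.32, wild-type replicate 3 gave 0.015, mutant replicate 1 gave 0.30 and mutant replicate 2 gave 0.07.

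Hbb-bt, the minor adult beta globin (ENSMUSG00000073940, chromosome 7 from 103812524 to 103813996, 3 exons), stood at 7.43, 13.2 and 8.76 CPM in wild-type cortex and at 9.26, 12.4 and 14.8 CPM in mutant cortex. The genotypes overlapped, since wild-type replicate 2 was above mutant replicates 1 and 2. The means were 9.80 ± 3.02 and 12.1 ± 2.76 CPM (SD, n = 3 each). The log2 fold change was 0.31 (SE 0.26, 95% interval -0.28 to 0.89, edgeR adjusted p = 1.0). It ranged from 0.14 without wild-type replicate 1 or mutant replicate 3 to 0.59 without wild-type replicate 2, where the unadjusted p was 0.0453 and the edgeR adjusted p 0.952.

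**Figure D1:**
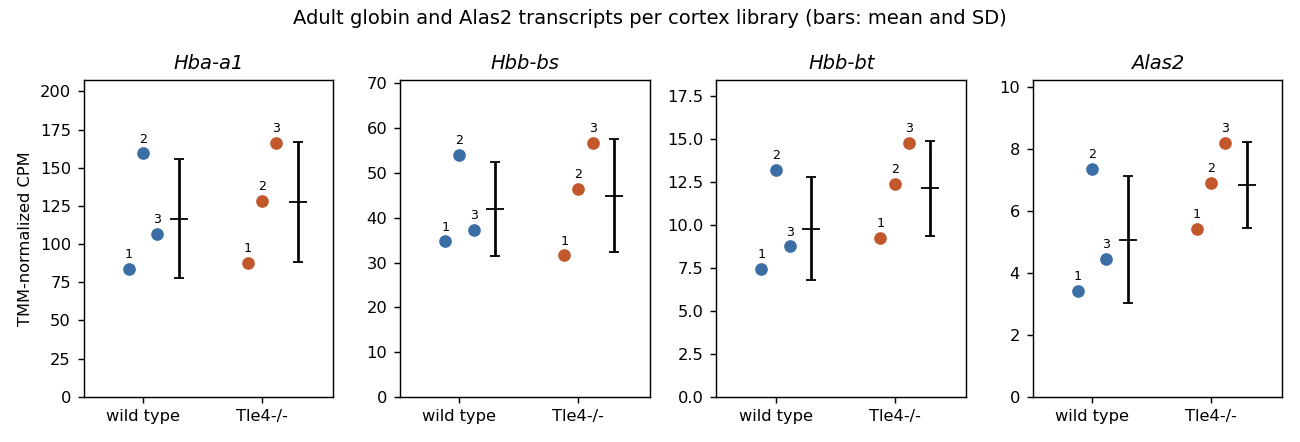
TMM-normalized CPM of Hba-a1, Hbb-bs, Hbb-bt and Alas2 in each library, with the replicate number above each point and the mean and SD of the 3 libraries of a genotype as a bar. In all 4 genes wild-type replicate 2 and mutant replicate 3 are the highest of their genotype, replicate 1 is the lowest, and the genotypes overlap.

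The adult beta pair could be read as a share, chosen after its values were seen. Hbb-bt made up 17.6%, 19.6% and 19.1% of the summed Hbb-bs and Hbb-bt counts in wild-type cortex and 22.7%, 21.1% and 20.7% in mutant cortex. The 3 mutant shares were all above the 3 wild-type shares. Strains can differ in their adult beta pair, as described above, and the part of this in the shares was not tested. The 95% Wilson intervals, which cover counting error only, ran from 15.2% to 20.4% in wild-type replicate 1 and from 17.7% to 21.7% in wild-type replicate 2. They ran from 20.0% to 25.6% in mutant replicate 1 and from 18.6% to 22.9% in mutant replicate 3. The intervals of mutant replicate 1 and wild-type replicate 1 overlapped. With 3 libraries against 3, a difference of this kind could not reach an exact 2-sided permutation p below 0.1. The coding sequences of the main Hbb-bs and Hbb-bt transcripts differ at 1 of 444 bases, and 62.6% of the 100-base windows of Hbb-bs occur unchanged in Hbb-bt, so the division of reads between them is uncertain too.

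**Figure D2:**
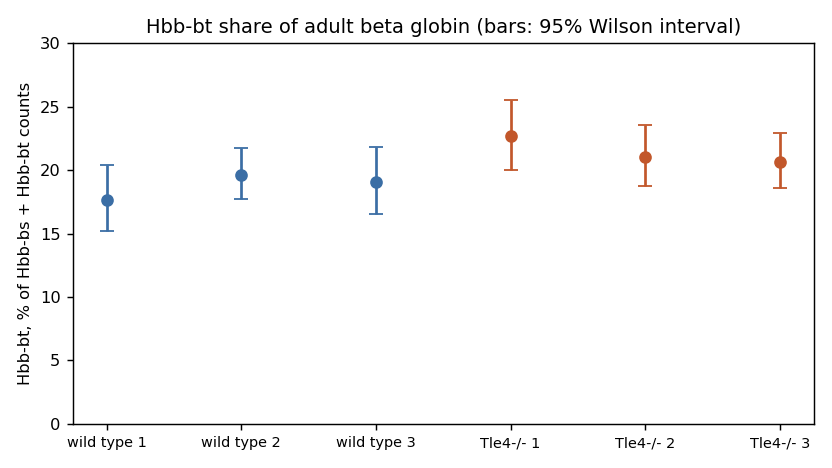
Hbb-bt counts as a percent of the summed Hbb-bs and Hbb-bt counts in each library, with 95% Wilson intervals for counting error. The wild-type shares run from 17.6% to 19.6% and the mutant shares from 20.7% to 22.7%, and neighbouring intervals overlap.

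Hbb-y, the embryonic beta-type chain of primitive red cells (ENSMUSG00000052187, chromosome 7 from 103851745 to 103853240), had 0, 3 and 0 counts in wild-type cortex and 0 in each mutant. Its coding sequence is 74.3% identical to that of Hbb-bs, and no 100-base window is shared, unlike the adult pair. In wild-type replicate 2 the adult beta genes had 1497 counts, 499 for each Hbb-y count (95% counting interval 170 to 2422). Where Hbb-y was at 0, the ratio is a lower bound against a floor of 3 counts per library. By that bound, adult beta counts were at least 276-fold and 285-fold higher than Hbb-y in wild-type replicates 1 and 3, and at least 291-fold, 375-fold and 456-fold higher in mutant replicates 1, 2 and 3. A count of 0 allows an Hbb-y share of up to 0.362% of beta-type counts in wild-type replicate 1 and up to 0.219% in mutant replicate 3. No fold between genotypes is given, because both were at or under the floor. Hba-x, the embryonic alpha-type chain and not itself a member of the set, had 1, 1 and 3 counts in wild-type cortex and 0 in each mutant, so it too was at or under the floor in every library.

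Alas2, the red cell form of the enzyme that starts heme synthesis (ENSMUSG00000025270, chromosome X from 150547375 to 150570638), stood at 3.41, 7.36 and 4.46 CPM in wild-type cortex and at 5.43, 6.91 and 8.19 CPM in mutant cortex. Wild-type replicate 2 lay among the mutants, so the genotypes overlapped, and the other wild types lay below all 3 mutants. The means were 5.08 ± 2.04 and 6.84 ± 1.38 CPM (SD, n = 3 each), with a log2 fold change of 0.42 (SE 0.30, 95% interval -0.26 to 1.11, edgeR adjusted p = 1.0). It ranged from 0.21 without wild-type replicate 1 to 0.80 without wild-type replicate 2, where the unadjusted p was 0.0198 and the edgeR adjusted p 0.915. The table gives Apex2, a DNA repair gene, a span that covers all of Alas2. Apex2 had 120, 202 and 184 counts in wild-type cortex and 234, 158 and 130 in mutant cortex, an order that differed from that of Alas2, and whether counting used the strand is not given in the sources used here. Alas2 is X-linked, and effects of sex and genotype cannot be told apart in these libraries, with the sex of wild-type replicate 3 unclear.

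Slc4a1, the band 3 anion exchanger of the red cell membrane (chromosome 11 from 102348824 to 102366203), had 1, 15 and 8 counts in wild-type cortex and 5, 10 and 3 in mutant cortex. Hemgn, a nuclear protein of red cell precursors (chromosome 4 from 46393989 to 46413506), had 2, 0 and 1 counts in wild-type cortex and 0, 3 and 2 in mutant cortex. Both were too low for the filter on low counts, as was Hbb-y, so no difference in these 3 was detectable at this depth. Hba-a2 did not pass it either, and what part the assignment of reads shared with Hba-a1 had in its low count was not tested.

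Of the 8 members in the table, 4 passed the filter: Hba-a1, Hbb-bs, Hbb-bt and Alas2. None of the 4 passed the threshold of an adjusted p under 0.05 by edgeR, where 0.111% of the 16274 genes tested did (18 genes, 0.0492% higher and 0.0614% lower in mutant cortex). None of the 4 had an unadjusted p under 0.05, which 3.45% of all genes tested had. DESeq2 and limma-voom also called 0 of the 4. With no filter beyond 1 count, 0 of 8 were called by edgeR. The genotypes overlapped in all 8 members, while 7.93% of the genes tested showed no overlap. All 4 had a log2 fold change above 0, with a median of 0.22 against -0.01 over all genes tested, but the genes shared the same high and low libraries and are not independent. Their level varied far more than counting error: the coefficient of variation over the 6 libraries was 29.1% for Hba-a1, 24.2% for Hbb-bs, 26.3% for Hbb-bt and 30.8% for Alas2, against 2.02%, 3.39%, 6.74% and 9.13% from counting alone. The authors' deposited table gives these 4 genes p-values of 0.602 (Hba-a1), 0.676 (Hbb-bs), 0.308 (Hbb-bt) and 0.222 (Alas2), and an adjusted p of 1.0 to each of the 8 members.

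Summed over the members, the blood transcript content was 127, 242 and 157 CPM of the raw library total in wild-type cortex and 133, 194 and 244 in mutant cortex. The 95% Wilson intervals were narrow, for example 122 to 132 in wild-type replicate 1 and 235 to 248 in wild-type replicate 2. The means were 175 ± 59.6 and 190 ± 55.2 CPM (SD, n = 3 each), and the genotypes overlapped. On the log2 scale the mutant mean was 0.13 above the wild-type mean, against a spread within genotypes of 0.46. Omitting wild-type replicate 1 turned the difference to -0.08, and omitting mutant replicate 3 to -0.07. It was 0.39 with wild-type replicate 2 omitted, 0.08 with wild-type replicate 3, 0.36 with mutant replicate 1 and 0.09 with mutant replicate 2. Globins made up 95.8% to 97.2% of these counts in every library. For the red cell genes alone the sum was 3.50, 8.28 and 4.94 CPM in wild-type cortex and 5.63, 7.57 and 8.36 in mutant cortex, a log2 difference of 0.44, with Alas2 holding most of these counts. In bulk tissue, fewer red cells and less RNA per red cell cannot be told apart.

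The adult genes kept nearly the same order of libraries. Across the 6 libraries, log2 CPM of Hba-a1 correlated with that of Hbb-bs (Pearson's r = 0.979, exact permutation p = 0.00694, Spearman's rho = 0.943, p = 0.0167) and of Hbb-bt (r = 0.945, exact permutation p = 0.00972, rho = 0.943, p = 0.0167). With Alas2, r was 0.884 (exact permutation p = 0.025) and rho 0.943 (p = 0.0167). Without the 2 libraries farthest from the median of Hba-a1, wild-type replicate 1 and mutant replicate 3, r was 0.995, 0.880 and 0.756. These are 3 of 7 relations computed after the values were seen. Adjusted over the 7, the p-values of r were 0.034, 0.034 and 0.0583, and those of rho 0.039 each.

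The summed markers of the brain's coverings and of its vessels were each highest in wild-type replicate 2 and lowest in wild-type replicate 1. Hba-a1, Hbb-bs, Hbb-bt and Alas2 were highest in mutant replicate 3, with wild-type replicate 2 next. Single vessel markers had other orders, as Pecam1, at 23.5 CPM in mutant replicate 2 and 14.5 CPM in wild-type replicate 3, its highest and lowest libraries. The summed level of 10 of 10 meningeal markers was 35.1, 752 and 276 CPM in wild-type cortex and 288, 584 and 395 CPM in mutant cortex, and 1 of the 10, Aldh1a2, was at 0 in wild-type replicate 1. The summed level of 10 of 10 endothelial markers was 182, 298 and 190 CPM in wild-type cortex and 210, 251 and 222 CPM in mutant cortex, with none at 0. Mutant replicate 3 had the highest globin content of all libraries, with both marker sums below those of wild-type replicate 2 and mutant replicate 2. It also had the Ttr counts described above. The correlation of Hba-a1 with Col1a1 was r = 0.713 (exact permutation p = 0.0389, adjusted over the 7 relations 0.0681; rho = 0.771, p = 0.103) and r = 0.912 without the same 2 libraries. With Cldn5, a tight junction gene of endothelium, r was 0.571 (exact permutation p = 0.233; rho = 0.429, p = 0.419), and 0.942 without them. With Pecam1, also endothelial, r was 0.435 (exact permutation p = 0.394; rho = 0.543, p = 0.297), and 0.646 without them. With Csf1r, a microglial receptor, r was 0.638 (exact permutation p = 0.183; rho = 0.543, p = 0.297), and 0.850 without them. The adjusted p of r for these last 3 genes were 0.272, 0.394 and 0.256, and of rho for all 4 genes, in the same order from Col1a1, 0.18, 0.419, 0.347 and 0.347. The part of meningeal or vessel content in the globin levels was not tested.

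**Figure D3:**
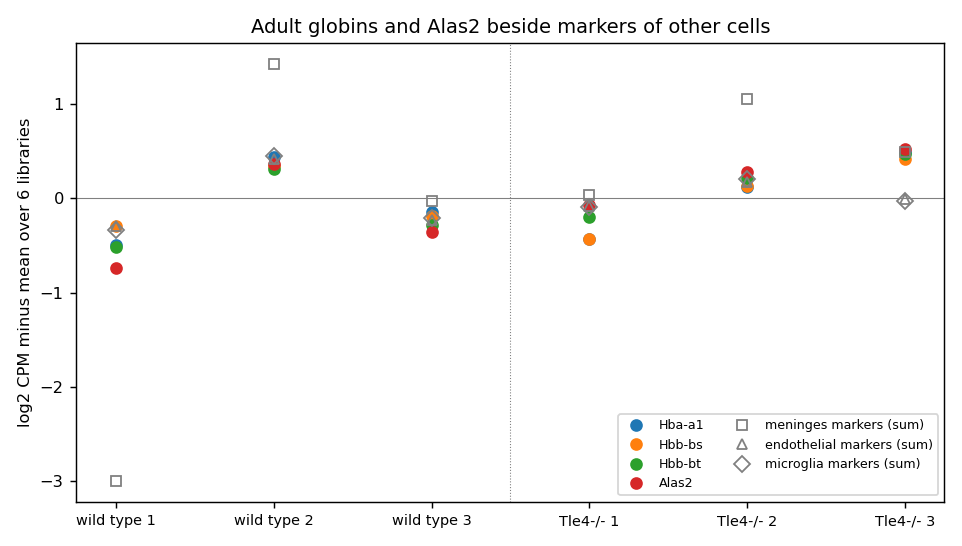
log2 CPM of Hba-a1, Hbb-bs, Hbb-bt and Alas2 in each library, and log2 of the summed CPM of meningeal, endothelial and microglial markers, each after subtracting its mean over the 6 libraries. Meningeal markers are far below the rest in wild-type replicate 1. The globins and Alas2 are highest in mutant replicate 3, with wild-type replicate 2 next. In mutant replicate 3 the endothelial and microglial sums are near their mean. The meningeal sum there is above its mean, which the low value of wild-type replicate 1 draws down.

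Markers of other blood cells were measured too. Of 8 neutrophil markers in the table, 1 passed the filter on low counts, and their summed level was 1.44 to 3.44 CPM in wild-type cortex and 1.09 to 2.09 CPM in mutant cortex. Of 8 platelet markers, 4 passed it, and the summed level was 10.2 to 14.4 CPM in wild-type cortex and 9.68 to 16.4 CPM in mutant cortex. Gp1bb, a platelet surface receptor subunit, made up 4.31 to 7.69 CPM of it, Gp1ba 2.01 to 4.53 CPM and Itga2b 1.62 to 3.46 CPM. These genes held most of the sum in every library, so it says little of the other platelet markers. The platelet chemokine Pf4 had 0, 76 and 14 counts in wild-type cortex and 9, 30 and 15 in mutant cortex, lowest in wild-type replicate 1 and highest in wild-type replicate 2. None of the 5 tested genes of the pair of lists was called by edgeR, and none had an unadjusted p under 0.05.

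Levels of different genes can be compared only per length, and here the length mattered. The deposited FPKM (CPM per kilobase) of Hba-a1 was 68.6, 138 and 89.3 in wild-type cortex and 72.9, 107 and 138 in mutant cortex. That of Hbb-bs was 19.6, 32.1 and 21.4 and then 18.1, 26.7 and 32.3, and that of Hbb-bt 10.4, 19.3 and 12.5 and then 13.1, 17.6 and 20.8. By FPKM, Hba-a1 was 3.50 to 4.29 times Hbb-bs, and Hbb-bs 1.38 to 1.89 times Hbb-bt. The FPKM of a gene equals its count over the library total and a fixed length, which was 1193 bases for Hba-a1, 1734 for Hbb-bs and 703 for Hbb-bt. The main GENCODE M21 transcripts are 699, 628 and 703 bases long. The length of 1193 equals the sum of the 2 annotated transcripts of Hba-a1, and 1734 exceeds the 1379 bases of all 3 annotated Hbb-bs transcripts together. With counts per kilobase of the main transcript, a setting added after seeing the data, Hba-a1 was 2.16 to 2.65 times Hbb-bs, and Hbb-bs 3.82 to 5.23 times Hbb-bt. The alpha gene over the summed beta genes was 1.81 to 2.18 in wild-type libraries and 1.97 to 2.14 in mutant libraries on that scale, and the genotypes overlapped. By FPKM the same ratio was 2.29 to 2.68 over all libraries. Among all 23621 genes, Hba-a1 ranked 242nd by mean FPKM and 2044th by mean CPM.

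**Figure D4:**
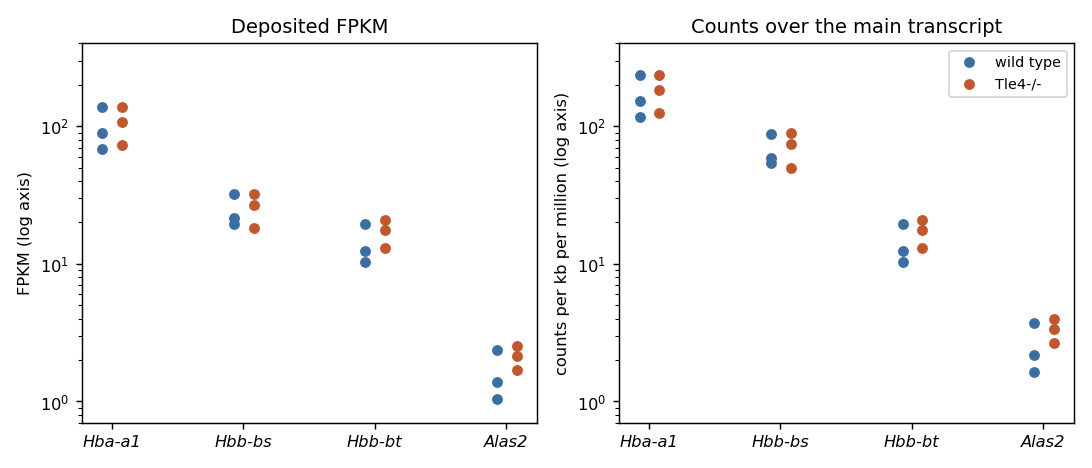
Levels per length of Hba-a1, Hbb-bs, Hbb-bt and Alas2 in each library on a log axis, as the deposited FPKM (left) and as counts per kilobase of the main GENCODE transcript, scaled as CPM (right). The order of the genes is the same in both panels, but Hbb-bs stands 1.38 to 1.89 times above Hbb-bt on the left and 3.82 to 5.23 times on the right.

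Of 6 other globins in the table, 4 were tested and none was called by edgeR. Of the 4, 1 had an unadjusted p under 0.05, which 3.45% of all genes tested had. Hbq1a and Hbq1b, theta globin genes that lie beside the Hba genes, were low. Hbq1a had 8, 10 and 6 counts in wild-type cortex and 12, 22 and 13 in mutant cortex. Its genotypes did not overlap, which held for 7.93% of all genes tested. Its log2 fold change was 0.996 (SE 0.44, 95% interval 0.02 to 1.98, unadjusted p = 0.047 and edgeR adjusted p = 1.0), and 0.64 without mutant replicate 2. For Hbq1b it was 0.66 (SE 0.48), the genotypes overlapped, and omitting wild-type replicate 3 gave 0.32 where omitting mutant replicate 1 gave 0.35. Cygb, the cytoglobin of fibroblast-like and other cells, stood at 27.8 ± 4.92 CPM in wild-type cortex and 22.2 ± 2.54 CPM in mutant cortex (SD, n = 3 each; log2 fold change -0.32, SE 0.16, edgeR adjusted p = 1.0), and the change was -0.18 without wild-type replicate 1. Ngb, the neuroglobin of neurons, had a log2 fold change of -0.10 (SE 0.34), which was 0.24 without wild-type replicate 1. Mb, the myoglobin of muscle, had 1 to 4 counts in each library.

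Heme is made in every cell, and 8 genes of the pathway other than Alas2 were examined. All 8 were tested and none was called by edgeR, with 4 above and 4 below 0 and a median log2 fold change of -0.00. Ppox, a late enzyme of the pathway, had a log2 fold change of 0.27 (18.9 to 22.8 CPM), and Alas1, the form of the first enzyme used outside red cells, of -0.19 (33.4 to 29.4 CPM). Cpox and Urod, which act in the middle of the pathway, had -0.17 and 0.09. Omitting mutant replicate 1 gave Ppox 0.18, Cpox -0.37 and Urod 0.04, and omitting wild-type replicate 2 gave Alas1 -0.12 and Cpox 0.012, the other side of 0. Over all libraries omitted in turn, Cpox ran from -0.41 (wild-type replicate 1) to that value, and Urod from 0.03 (mutant replicate 2) to 0.21 (mutant replicate 3). None of the 8 had genotypes that did not overlap, against 7.93% of all genes tested. None had an unadjusted p under 0.05, against 3.45%.

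Of 16 genes of the red cell membrane and its skeleton in the table, 10 were tested, none was called by edgeR and none had an unadjusted p under 0.05, with 7 above 0 and a median of 0.10. The smallest p-values belonged to Add2, a beta adducin that neurons also make (log2 fold change 0.17, 504 to 567 CPM), Dmtn, an actin-bundling protein (0.29), Tspan33, a tetraspanin (0.41, 2.91 to 3.89 CPM), and Epb41, a skeletal protein that links spectrin to the membrane (-0.21). For Epb41 the value was -0.47 with wild-type replicate 2 omitted, -0.07 with wild-type replicate 1, -0.06 with wild-type replicate 3 and -0.05 with mutant replicate 3. For 2 of the 10, Add2 and Tspan33, the genotypes did not overlap, which held for 7.93% of all genes tested. Omitting mutant replicate 1 gave Add2 0.11 and Dmtn 0.14, and omitting wild-type replicate 3 gave Dmtn 0.16. In 6 of the 16 no library reached 10 counts, among them Rhag, a red cell membrane protein with 0 or 1 counts in each library.

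Of 11 erythroid transcription factors in the table, 7 were tested and none was called by edgeR. Of the 7, 2 had an unadjusted p under 0.05, which 3.45% of all genes tested had. In 1 of the 7, Ikzf1, the genotypes did not overlap, against 7.93% of all genes tested. Ikzf1, a zinc-finger factor of blood cells, stood at 8.61 ± 4.69 CPM in wild-type cortex and 3.29 ± 0.771 CPM in mutant cortex (SD, n = 3 each), with no overlap (log2 fold change -1.38, SE 0.39, unadjusted p = 0.00675, edgeR adjusted p = 1.0), and it was -0.87 without wild-type replicate 3. Lmo2, a cofactor in blood and endothelial cells, had -0.57 (unadjusted p = 0.0408, edgeR adjusted p = 1.0). Tal1 had -0.21, which was -0.04 with mutant replicate 3 omitted and -0.38 with mutant replicate 1 omitted. Myb had 0.17, which was 0.06 with wild-type replicate 2 or mutant replicate 2 omitted and 0.25 with wild-type replicate 1 omitted. Gata1, the main regulator of globin genes, had 0 to 3 counts in each library, Klf1, which activates the adult beta gene, had 1 to 5, and Gfi1b had 0 or 1. None of the 3 passed the filter on low counts.

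Of 17 genes of red cell maturation and iron handling in the table, 15 were tested, none was called by edgeR and none had an unadjusted p under 0.05, with 7 above and 8 below 0. Tfrc, the transferrin receptor, had a log2 fold change of -0.27 (187 to 156 CPM), Slc25a37, the iron carrier mitoferrin, 0.25 (14.5 to 17.2 CPM), Fam210b -0.22 and Ypel4 0.32. Tfrc was -0.13 with wild-type replicate 2 omitted, -0.40 with wild-type replicate 1 and -0.42 with mutant replicate 3. Slc25a37 was 0.12 with mutant replicate 1 omitted and 0.39 with wild-type replicate 2, Fam210b -0.38 with mutant replicate 2 and -0.13 with mutant replicate 3, and Ypel4 0.20 with wild-type replicate 3. For Ypel4 the genotypes did not overlap, the only gene of the 15 for which this was so, against 7.93% of all genes tested.

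**Figure D5:**
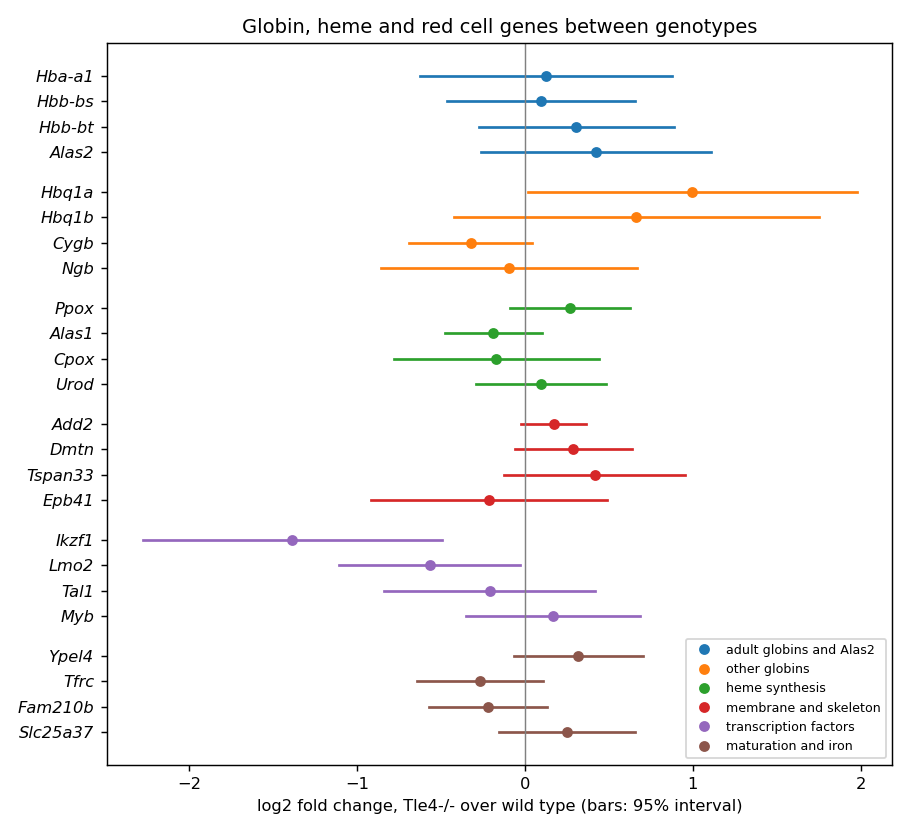
Log2 fold change of the mutant over the wild type with its 95% interval for the 4 tested members, 4 other globins and up to 4 genes of each other list with the smallest p. The intervals of the 4 members all include 0, and those of Hbq1a, Ikzf1 and Lmo2 do not, although none of the genes passes the adjusted threshold.

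Among genes with a mean of at least 1 CPM, likeness to the blood transcripts was measured as Pearson's r over the 6 libraries with the mean centred log2 CPM of the 4 members at that level. With 6 points shared by all genes, the values are a description, and no test was made. The 10 highest were Adgrv1 (0.982), Sash1 (0.981), Eif1-ps1 (0.974), Ephx2 (0.972), Lrp4 (0.970), Dock2 (0.969), Epb41l2 (0.965), Tcp11l1 (0.965), Pdlim5 (0.964) and Adgrf5 (0.959). None of them belongs to the red cell lists. The closest red cell gene was Aqp1, a water channel of red cells, choroid plexus and other cells, at 0.898. Among the red cell lists, the median r was 0.553 for 9 membrane genes, 0.26 for 8 heme genes, -0.091 for 14 maturation and iron genes and -0.372 for 7 transcription factors, against -0.031 over all genes at this level. Among the marker lists it was 0.746 for meninges, 0.703 for endothelium, 0.684 for microglia, 0.644 for pericytes and 0.089 for 4 platelet genes, and for 2 other globins it was -0.385.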

How the data were processed

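Per the file headers, the authors deposited whole-number counts and FPKM per gene and library, along with p-values, raw and adjusted, from their edgeR comparison. Tools named by the submitters' processing notes are edgeR, StringTie and HISAT2 2.0.4, with mm10 and GRCm38.p4 as builds. For the counting program, the annotation release and the strand setting, the entry is: not given in the sources used here. Gene coordinates are those of the deposited table, and promoter windows those of RefSeq.

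Counts were analysed with edgeR 4.0.16 (R 4.3.3): filterByExpr, TMM factors, a robust quasi-likelihood fit on genotype, 2-sided tests, and Benjamini-Hochberg adjustment over 16274 genes at a threshold of 0.05. SEs were derived from the F statistic. The fit was tested on simulated data for 16274 genes with 200 changed: 185 were called, 7 falsely, with 78.0% of 2-fold and 100% of 4-fold changes found. The simulated spread followed the trend over all genes, and only genes above a minimum mean count were changed. The chance of finding a change in the members at their own spread was not tested. Blood content and globin ratios were described without a test. Log2 CPM used a pseudocount of 0.5. Correlations and Wilson intervals used SciPy 1.17.1. The planned genotype difference in the adult to embryonic ratio was not computed, since Hbb-y was at or under 3 counts throughout.

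Alternatives were DESeq2 1.42.0 size factors and Wald test, limma-voom (limma 3.58.1), 2 other filters, a replicate block, TMM without the members, other sums and units, and each library left out. Named genes are all members, other globins, up to 4 genes of each red cell list with the smallest p, the 10 closest in likeness, and marker genes beside a result. Genes named for low counts (Gata1, Klf1, Gfi1b, Rhag, Mb), Apex2 and Aqp1 were chosen after their values were seen. The members and lists were chosen with earlier results of these data known.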

Additional observations from a re-analysis of the deposited data

How the results depend on the processing

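None of the members passed the threshold under any of the 13 alternatives, and without wild-type replicate 2, 2 of them had an unadjusted p under 0.05. Over 24 of the tested genes named (the members, other globins and red cell lists, without marker genes, Aqp1 or genes named for likeness), 304 of 310 alternative values kept their direction and their side of the threshold. The 6 that changed direction came from leaving out a library. All settings reused the same counts, so their agreement is not independent support. No adjusted p of these genes was under 0.115 (Ikzf1, DESeq2 Wald test). Leaving out wild-type replicate 1 gave Hba-a1 -0.06, Hbb-bs -0.02 and Ngb 0.24, leaving out mutant replicate 3 gave Hba-a1 and Hbb-bs -0.11 each, and leaving out wild-type replicate 2 gave Cpox 0.012. Over all libraries left out, Hba-a1 ranged from -0.11 to 0.42, Hbb-bs from -0.11 to 0.32, Ngb from -0.32 to 0.24 and Cpox from -0.41 to 0.012. The blood content difference ranged from -0.079 to 0.39 over the libraries left out, the lowest for wild-type replicate 1, and mutant replicate 3 gave -0.07. It was 0.14 on TMM-effective sizes, 0.13 from summed FPKM, 0.12 for globins and 0.44 for red cell genes. The number of genes called over the whole table was 18, against 58 by the DESeq2 Wald test, and 8 to 19 with a library left out, the lowest without mutant replicate 3. With a replicate block it was 9. No label ties the replicate numbers to litters, so the numbers were not taken as pairs. Libraries of the same number had correlations of their deviations of -0.08, 0.11 and -0.02 (Pearson's r across genes, which are not independent replicates). Those of different numbers ran from -0.11 to 0.12, so these correlations could not decide whether the numbers are pairs. The block gave log2 fold changes of 0.13 for Hba-a1, 0.08 for Hbb-bs, 0.32 for Hbb-bt and 0.48 for Alas2. The cause of these shifts was not tested. The lowest bound of adult beta to Hbb-y, 276, was 225 from Hbb-bs alone and 48.7 from Hbb-bt alone. The ratio of adult beta counts to Hbb-y could not be recomputed with Hbb-bh1, which was not analysed here, or from FPKM, which has no floor. Low counts limit what can be said of Hbb-y, Hba-x, Slc4a1 and Hemgn, and for Hba-a2 the part of read assignment between the Hba genes was not tested.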
